A study of Rattus norvegicus with 30 samples.

Results

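Alcohol dehydrogenases oxidise alcohols to aldehydes with NAD+, and aldehyde dehydrogenases carry the aldehydes on to acids. The pair is best known for clearing ethanol in the liver, but the same families also act on retinol and retinal, on aldehydes released from oxidised lipids and on intermediates of amino acid breakdown. In heart muscle the mitochondrial enzyme Aldh2 is known for removing reactive lipid aldehydes. Expression of 10 of these genes was described here in rat heart: Adh1, Adh5, Adh7, Aldh1a1, Aldh1a2, Aldh2, Aldh3a2, Aldh4a1, Aldh6a1 and Aldh9a1. They were taken by symbol from the authors' tables, which list 23268, 23227 and 22458 gene or probe names at 8, 21 and 78 weeks, and every row of a symbol was kept. That gave 11 rows at each age, because Aldh9a1 has a pair of rows. Of the members Adh1 was chosen by a measured value, its difference between the sexes at 21 weeks, so its values at that age are a description without a test. The others were chosen by family.

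Whole hearts came from 30 untreated F344 rats, an inbred strain, bred in the colony of the National Center for Toxicological Research and given NIH-31 diet. There were 6 groups of 5 rats, females and males at 8, 21 and 78 weeks, with 1 array per rat. RNA was labeled with Cy3 and hybridized to Agilent rat arrays of 45018 spots. A value below is a spot's signal relative to its array, whose 75th percentile is set to 1, and is called normalized signal, and differences are female minus male on the log2 scale. In a whole organ, fewer cells of a type and less RNA per cell cannot be told apart.

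Between 15920 and 22615 of 41012 probes per array were well above background, fewest in a 21-week male. The 21-week males were dimmer as a group, with a median of 18148 such probes against 19983 in females of that age. Their 75th percentile signal ran from 37.2 to 97.2 scanner units, against 77.5 to 113 in those females. The part of this in differences at 21 weeks was not tested. Of the 8 slides each held both sexes, but females lay at positions 2 and 4 and males at 1 and 3, so array position and sex cannot be told apart. By the study's methods, rats of 1 age shared a batch, so age and batch cannot be told apart either. The Y-linked genes Ddx3y and Eif2s3y did not match the labeled sex on 2 of 30 arrays, those labeled female 2 and male 3 of 78 weeks. The array labeled female 4 of that age also stood apart. Its summed normalized signal was 8.66 over 3 erythroid markers, against 23.4 to 36.0 on the other 9 arrays of that age, and 77.4 over 5 fibroblast markers, against 102 to 151. Over 3 hepatocyte markers it was 4.48, against 1.37 to 2.15. Of these Ttr was by far the brightest on average (mean log2 value 1.09 in females of that age), with Alb at -4.11 and Serpina1 at -5.32. Labels were kept as given, and member results that rest on these arrays are given with and without them. Cardiomyocyte markers (8 genes, among them Myh6 and Tnnt2) summed to at least 1459 on every array, so the tissue carried the defining genes of heart muscle.

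The probes are 60 bases long, and the array's annotation gives the transcript or locus each was designed for. The Adh1, Adh5 and Adh7 probes lie in a cluster on chromosome 2 of the rn3 build, in which the scanner files are annotated. The Adh1 probe covers chr2:235796908-235796967 on the plus strand, and its letters come from the RefSeq transcript of Adh1. RefSeq (GRCr8) now calls this gene Adh1c and places it between Adh7 and Adh6a. The Adh5 probe was annotated as Adh4 when the array was made, and the authors' table lists it as Adh5. It covers chr2:235970526-235973780, and as its 60 bases span 3255 bases of genome, it crosses at least 1 intron. The Aldh4a1 probe carried no gene symbol on the array, and it is named here as the authors list it. The Adh1 and Adh5 probes are shown, with that of Aldh6a1 from chr6:108500949-108501008 on the minus strand. Adh1 and Aldh6a1 had the largest differences among rows well above background on all arrays of an age, and Adh5 has an uncertain name. The probes of Adh7 and Aldh1a2, which were near background, are left out.
Adh1: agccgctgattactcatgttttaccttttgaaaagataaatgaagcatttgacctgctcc
Adh5: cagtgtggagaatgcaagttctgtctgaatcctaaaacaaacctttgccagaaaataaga
Aldh6a1: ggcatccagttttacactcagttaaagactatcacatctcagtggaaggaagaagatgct

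Both Aldh9a1 rows are shown because their probes were designed for different loci. Row 1 was designed for a locus described on the array as similar to Aldh9a1, at chr14:68352232-68352291 on the minus strand, whereas row 2 is from the RefSeq transcript of Aldh9a1 at chr13:83039114-83039173 on the plus strand. As row 1 may share RNA with a near-identical copy, its gene is uncertain.
Aldh9a1 row 1: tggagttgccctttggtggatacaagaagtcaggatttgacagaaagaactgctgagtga
Aldh9a1 row 2: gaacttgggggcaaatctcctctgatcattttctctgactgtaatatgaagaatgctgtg
The longest run of bases shared by any pair of the 11 probes was 8, and no row repeats the probe of another.

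Adh1, the class I alcohol dehydrogenase that oxidises ethanol and retinol, was lower in female than in male hearts at 21 weeks. Normalized signal in the females was 0.177, 0.204, 0.232, 0.178 and 0.332, and in the males 0.578, 0.715, 0.712, 0.694 and 0.511. Every male lay above every female. Females averaged -2.20 ± 0.37 and males -0.65 ± 0.22 on the log2 scale (SD, n = 5), a difference of -1.54 or 2.91-fold. As the gene was chosen for this difference, no test is given, and nothing is read from the 2.12% of all rows at 21 weeks whose groups did not overlap with males higher. Within the 3 slides of that age the differences were -1.79, -1.75 and -0.62, whose direction is fixed once the groups do not overlap. Over all rows the median difference at 21 weeks was -0.14, towards the males. Summed endothelial markers were 55.6 to 75.8 in females and 29.6 to 59.5 in males. That sum is mostly Kdr (mean log2 value 6.02 in females and 5.40 in males). Vwf, Pecam1 and Cdh5 differed by 0.10, -0.03 and -0.06. Erythroid markers summed to 22.1 to 37.4 in females and 31.2 to 57.9 in males. Fibroblast markers summed to 111 to 138 in females and 128 to 150 in males. Of the 5, Dcn and Lum were at an unadjusted p under 0.05 with males higher, as were 9.67% of all rows. Col1a1 (difference 0.33) and Pdgfra (0.28) leaned towards females, and Col3a1 differed by -0.02. The part of these cell types in the difference was not tested.

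At 8 weeks the mean of Adh1 was again lower in females, by less. Normalized signal was 0.186, 0.117, 0.155, 0.187 and 0.137 in the females and 0.159, 0.200, 0.275, 0.271 and 0.226 in the males. All 5 females lay below the male mean, and only male 1 lay within the range of the females. The difference was -0.53 (SE 0.19), 1.44-fold, which did not pass the adjusted test (limma, adjusted p = 0.758). It was the only one of the 11 rows at an unadjusted p under 0.05, and 3.52% of all rows at that age were at such a p with males higher. Females were lower on each of the 3 slides, with differences from -0.71 to -0.28. Over the 5 fibroblast markers the summed signal was 196 to 227 in females and 236 to 266 in males, without overlap. By gene the differences were -0.38 (Col3a1), -0.24 (Col1a1), -0.16 (Lum), -0.03 (Dcn) and -0.01 (Pdgfra), so the collagens carried most of it. Over the 3 erythroid markers the sum was 16.5 to 27.2 in females and 23.9 to 38.2 in males. Hbb (-0.54) and Alas2 (-0.86) were lower in females and Hba-a2 (0.33) was higher. The part of these cell types in the Adh1 difference was not tested. The Adh1 spot was dim, with a processed signal of 22.6 to 249.1 scanner units over the 30 arrays, against a local background of 26 to 34.5 units, although it was called well above background on all of them.

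At 78 weeks 4 of 5 females lay below all the males, and 1 lay far above them. Normalized signal was 0.241, 0.433, 0.251, 1.37 and 0.307 in females 1 to 5 and 0.534, 0.497, 0.538, 0.479 and 0.626 in males 1 to 5. The value of 1.37 came from the array labeled female 4, which stood apart in its markers, and the 0.433 from the array labeled female 2, whose Y-linked genes were at the male level. With all 10 arrays the difference was -0.39 (SE 0.42; limma, adjusted p = 0.894). Without female 4 it was -0.83 (SE 0.18), 1.78-fold, and the groups did not overlap, as for 0.753% of all rows with males higher (adjusted p = 0.774). Without female 4 and both arrays at odds with their label, 3 females at 0.241 to 0.307 stood against 4 males at 0.479 to 0.626. The difference was then -1.002 (SE 0.14), 2.00-fold, with an adjusted p of 0.209, where 4.84% of all rows did not overlap with males higher. Leaving out arrays was decided with their values known. Summed macrophage markers were 3.31 to 4.29 in females and 4.32 to 6.83 in males at this age, the 3.31 being the array labeled female 4. By gene the differences were -0.67 (Cd163), -0.65 (Csf1r), -0.37 (Cd68) and -0.33 (Mrc1), with all 10 arrays. These markers were not summed without the arrays at odds with their label, and their part was not tested.

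**Figure D1:**
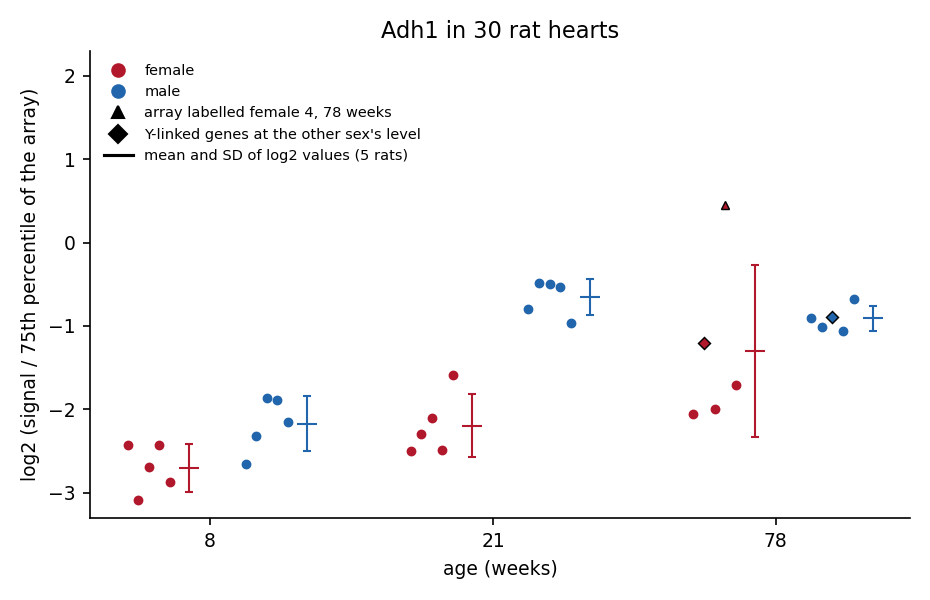
Adh1 in each heart, as log2 normalized signal (y axis), by age in weeks (x axis), females in red and males in blue, with the mean and SD of 5 rats beside each group. At 21 weeks all males lie above all females, and at 78 weeks the array labeled female 4 lies at 0.45, above every other array shown.

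Set side by side on 1 scale for the 30 arrays (log2 processed signal scaled to the 75th percentile over all 41012 probes), mean Adh1 was lowest in 8-week females at -1.91 ± 0.29 (SD, n = 5). Males of 8 weeks at -1.40 ± 0.34 and females of 21 weeks at -1.38 ± 0.38 followed (SD, n = 5), and these neighbours did not differ beyond their spread. Females of 78 weeks were at -0.41 ± 1.05, males of 78 weeks at -0.03 ± 0.13 and males of 21 weeks at 0.15 ± 0.20 (SD, n = 5). The last pair overlapped too, with 78-week males up to 0.18 and 21-week males down to -0.12. Age and batch cannot be told apart in this order.

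After the mean of each age and sex was taken off, the 5 named genes whose values followed Adh1 most closely over the 30 arrays were Dpysl4 (Pearson r = 0.886, Spearman rho = 0.712), Klc1 (0.848 and 0.606), Serpina3n (0.828 and 0.722), Panx2 (0.801 and 0.642) and Dpagt1 (0.792 and 0.564). They were taken from 19729 probes well above background on at least 20 arrays. Without the array labeled female 4 of 78 weeks r was 0.748 for Dpysl4, 0.616 for Klc1, 0.739 for Serpina3n, 0.538 for Panx2 and 0.544 for Dpagt1, so that array carries part of each likeness. The points share their arrays and the scaling of each array.

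The other alcohol dehydrogenases showed no difference that passed the test. Adh5, the class III enzyme that acts on the glutathione adduct of formaldehyde, had a normalized signal of 0.664 to 0.820 in 8-week females, with a median of 0.747, and of 0.688 to 0.884 in the males, with a median of 0.768. At 21 weeks the ranges were 0.866 to 1.00 and 0.870 to 1.33, and at 78 weeks 0.661 to 0.895 and 0.682 to 0.971. The sexes overlapped at every age. The differences were -0.06 (95% interval -0.26 to 0.14), -0.23 (-0.57 to 0.11) and -0.02 (-0.30 to 0.26). These intervals cover changes of up to about 0.57 log2, so small differences were not detectable with 5 rats of a sex.

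Adh7, the class IV enzyme known for oxidising retinol, was near background. The arrays that called its spot well above background were 0 of females and 2 of males at 8 weeks, 2 and 2 at 21 weeks, and 3 and 5 at 78 weeks, so no fold is given at 8 weeks. In old rats the normalized signal was 0.0893, 0.105, 0.0668, 0.0396 and 0.0504 in females 1 to 5 and 0.108, 0.100, 0.0947, 0.106 and 0.127 in males 1 to 5. The 2 arrays at odds with their label took opposite places: female 2 was the highest of the females and male 3 the lowest of the males. The difference was -0.69 (SE 0.25; limma, adjusted p = 0.856), the only one of the 11 rows at an unadjusted p under 0.05 at that age, where 3.68% of all rows were so with males higher. From the raw median signal it was -0.27, and after normexp background correction the sign turned (0.0092). Without both of these arrays the groups did not overlap, with females at 0.0396 to 0.0893 and males at 0.100 to 0.127, and the difference was -0.90 (SE 0.25, adjusted p = 0.421). Of all rows 3.81% did not overlap with males higher. With those arrays left out 3 member rows (Adh7, Aldh1a2 and Aldh6a1) were at an unadjusted p under 0.05, beside 8.4% of all rows.

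**Figure D2:**
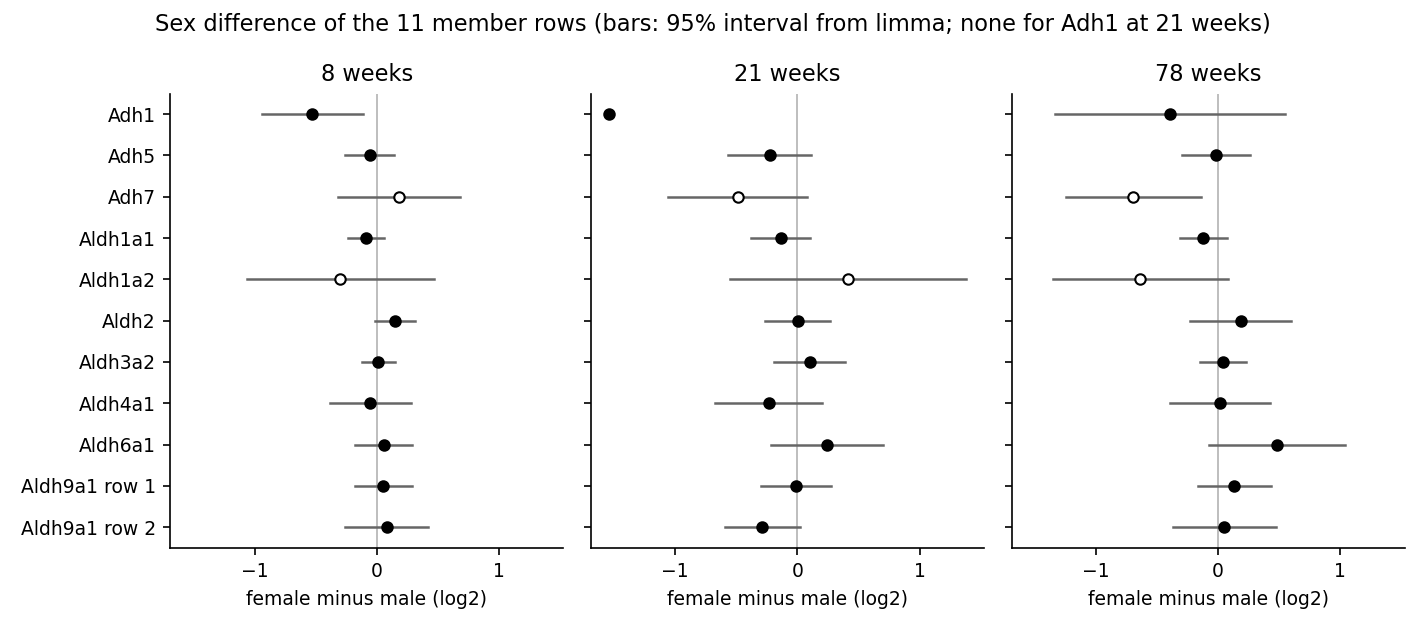
Female minus male difference on the log2 scale (x axis) for the 11 member rows (y axis) at 8, 21 and 78 weeks, with the 95% interval from limma as bars, except for Adh1 at 21 weeks, which was chosen for its value; filled points were well above background on all 10 arrays of the age and open points were not. Adh1 lies left of 0 at each age, at -0.53, -1.54 and -0.39, and its interval at 78 weeks reaches 0.55.

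No member row passed an adjusted p of 0.05 in limma at any age, for 11 rows at 8 weeks, 10 at 21 weeks (Adh1 not tested) and 11 at 78 weeks. Over all rows 0.102% passed at 8 weeks, 0.0511% at 21 weeks and 0% at 78 weeks. The smallest adjusted p among the members was 0.758, 0.327 and 0.856. At an unadjusted p under 0.05 there were 1, 0 and 1 rows, both higher in males, against 5.74, 15.9 and 5.65% of all rows. By direction 2.21, 6.19 and 1.98% of all rows were at such a p with females higher, and 3.52, 9.67 and 3.68% with males higher. The sexes did not overlap in 0, 1 (Adh1) and 0 member rows, and in 0.558, 1.93 and 0.41% of all rows with females higher and 0.85, 2.12 and 0.49% with males higher. The median difference of the 11 rows was 0.01, -0.14 and 0.02, beside 0.00, -0.14 and 0.00 over all rows.

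The cytosolic retinal dehydrogenases Aldh1a1 and Aldh1a2 make retinoic acid. Aldh1a1 was the steadiest member in young females, with a coefficient of variation of 1.77% over normalized signals of 2.63 to 2.74 (median 2.71), and 8-week males ranged from 2.59 to 3.10 (median 2.89). Its mean was lower in females at every age, by -0.09 (SE 0.07), -0.14 (SE 0.11) and -0.12 (SE 0.09), none past the test. At 78 weeks 5 of 5 females lay below the male mean, and the sexes overlapped. Aldh1a2 exceeded background clearly on 1 array of females and 2 of males at 8 weeks and on 0 at 21 and 78 weeks, so it has no fold. Its normalized signal ran from 0.0157 to 0.0827 over the 3 ages.

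Aldh2 had the brightest spot of the 11, at 4011 to 13937 scanner units, and no array saturated it. At 8 weeks the normalized signal of females ran from 50.6 to 60.0 around a median of 52.8, and that of males from 45.6 to 51.6 around 48.96. All 5 females lay above the male mean and all 5 males below the female mean, but the ranges overlapped, and the difference of 0.15 (95% interval -0.01 to 0.31) did not pass the test. At 21 weeks the sexes had nearly the same mean (difference 0.00, interval -0.27 to 0.27). At 78 weeks the values were 52.6, 52.0, 55.2, 68.9 and 58.0 in females 1 to 5 and 56.7, 30.7, 55.9, 59.7 and 54.5 in males 1 to 5. Male 2 alone lay far below the rest, and the difference of 0.18 (SE 0.19) was 0.00 without that rat. The highest value was again on the array labeled female 4.

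Aldh3a2, which oxidises long-chain fatty aldehydes, and both Aldh9a1 rows, whose gene acts in carnitine synthesis, had no difference that passed the test. For Aldh3a2 the differences were 0.01 (95% interval -0.12 to 0.15), 0.10 (-0.19 to 0.39) and 0.04 (-0.15 to 0.23), over normalized signals of 6.70 to 10.3. For Aldh9a1 row 1 they were 0.05 (-0.18 to 0.29), -0.01 (-0.29 to 0.27) and 0.13 (-0.17 to 0.43), and for row 2 0.08 (-0.26 to 0.42), -0.29 (-0.59 to 0.02) and 0.05 (-0.36 to 0.47). At 21 weeks row 2 was 0.897 to 1.24 in females and 1.12 to 1.44 in males, with all 5 females below the male mean, on 3 of 3 slides, and row 1 did not show this. Row 2 was at an unadjusted p under 0.05 in 4 alternatives, an analysis of variance, the filter on background, quantile normalization and leaving out male 4, at adjusted p of 0.219 to 0.323 (the last 3 in limma). The rows differ in the locus their probes were designed for, and the difference between them was not tested.

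Aldh4a1 and Aldh6a1 belong to the mitochondrial breakdown of proline and of valine. Aldh4a1 overlapped between the sexes at every age, with differences of -0.05 (SE 0.15), -0.24 (SE 0.20) and 0.02 (SE 0.18). Aldh6a1 was 1.57 to 2.05 in females and 1.54 to 1.97 in males at 8 weeks, and 1.81 to 2.36 and 1.07 to 2.28 at 21 weeks. In old rats the normalized signal was 1.70, 1.44, 1.70, 3.92 and 1.72 in females 1 to 5 and 1.31, 1.36, 1.74, 1.36 and 1.26 in males 1 to 5. Female 4 was far above the others, female 2 was the lowest of the females, and male 3 was the highest of the males. The difference was 0.48 (SE 0.25; limma, adjusted p = 0.856) and without female 4 it was 0.23 (SE 0.12, adjusted p = 0.926).

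Female 2 and male 3 are the arrays whose Y-linked genes did not match their label, and on both Aldh6a1 lay nearer to the rats of the other sex than to most of their own. Without both, the 4 females at 1.70 to 3.92 lay above the 4 males at 1.26 to 1.36, as for 3.13% of all rows with females higher, with a difference of 0.67 (SE 0.28, adjusted p = 0.579). Without female 4 as well, 3 females at 1.70 to 1.72 stood against those 4 males, with a difference of 0.37 (SE 0.09), 1.29-fold, and 4.91% of all rows did not overlap in that direction. The adjusted p was 0.391, so the call did not pass with any set of arrays. With those arrays left out 3.19% of all rows were at an unadjusted p under 0.05 with females higher.

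**Figure D3:**
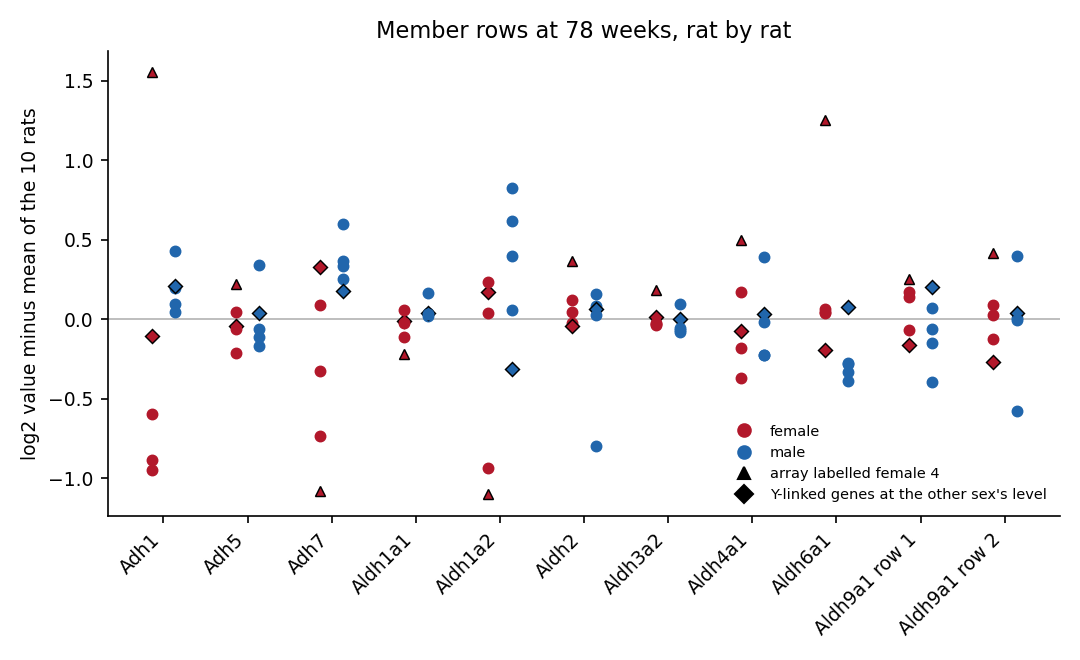
Each rat at 78 weeks for the 11 member rows (x axis), as log2 value minus the mean of the 10 rats (y axis), females in red and males in blue. The array labeled female 4 (triangles) is the highest or lowest female in all 11 rows, and the diamonds are the arrays labeled female 2 and male 3.

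The array labeled female 4 was at an extreme of its group in 11 of 11 rows, highest in 8 and lowest in 3 (Adh7, Aldh1a1 and Aldh1a2). Over all rows of that table it was at an extreme of the 5 females in 68.5%, against 26.3 to 39.9% for the other 4 females. The array labeled male 4 was at an extreme in 8 of 11 member rows and in 57.4% of all rows. Both arrays stood apart across the whole table and not in the member rows alone.

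**Figure D4:**
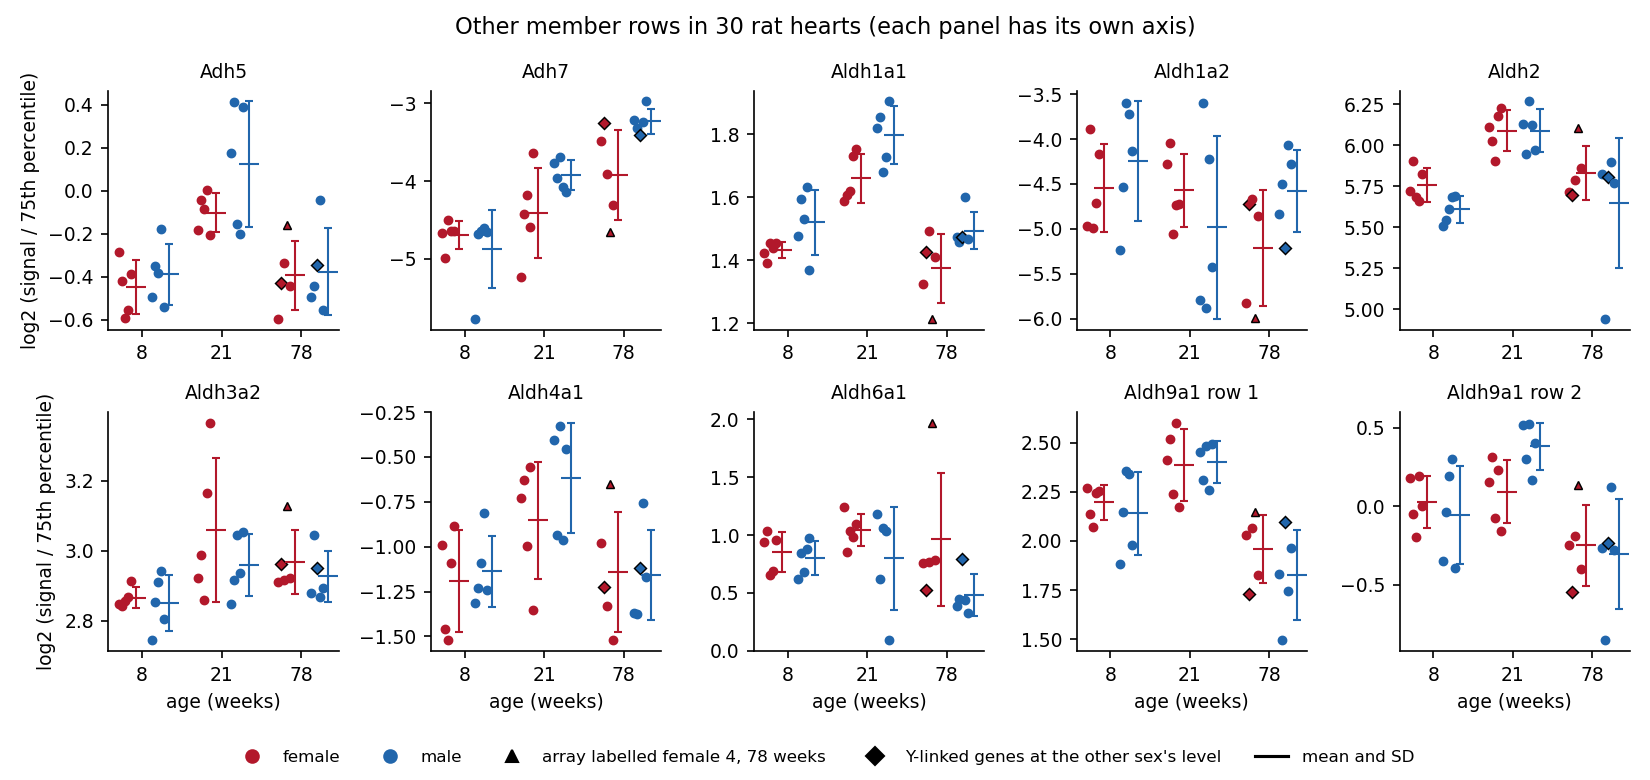
The 10 other member rows in each heart, as log2 normalized signal (y axes, each panel with its own range), by age in weeks (x axes), females in red and males in blue, with mean and SD of 5 rats. The sexes overlap in every panel at each age, and Adh7 and Aldh1a2 spread widely near background.

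Whether the difference between the sexes itself changed between ages was tested for all members, leaving out the terms of Adh1 that use 21 weeks. The study left such an interaction untested, because its ages were in different batches and false positives might result. A batch effect that acts unlike on the sexes cannot be told apart from a change with age. None of 31 tests passed an adjusted p of 0.05 in limma, while 1, 0 and 1 of all 41012 probes passed it in the 3 contrasts (0.00244, 0 and 0.00244%). Of the 31, 1 was at an unadjusted p under 0.05 (Adh7 between 8 and 78 weeks). The share of all probes at an unadjusted p under 0.05 was not worked out, so nothing is read from that count. The smallest adjusted p was 0.309, for Adh7 between 8 and 21 weeks. As the Adh7 spot was not well above background in 8-week females, no size is given for either. Without both arrays at odds with their label none passed the adjustment, with 0.317 as the smallest adjusted p. Then 3 of the 31 were at an unadjusted p under 0.05, again without the share of all probes. They were Aldh6a1 between 8 and 78 weeks, a change of 0.62 (SE 0.30), and, near background and so without a size, Adh7 between 8 and 78 weeks and Aldh1a2 between 21 and 78 weeks.

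Other genes of the families and of the same pathways were counted from lists. Of 16 other family genes 11 were in the table at 8 weeks, in 17 rows, of which 1 was at an unadjusted p under 0.05 with females higher (Aldh3a1, 0.26, SE 0.10) and 1 with males higher (Aldh1l2, -0.54, SE 0.19). At 21 weeks it was 1 and 1 of 20 rows, a row of Aldh16a1 and a row of Aldh8a1, of which only the first was well above background on any array, 2 of females. At 78 weeks it was 0 of 17. Of all rows 2.21% at 8 weeks and 6.19% at 21 weeks were at such a p with females higher. With males higher it was 3.52% and 9.67%. In the retinoid list of 23 genes, Cyp26b1, which degrades retinoic acid, was 1.59-fold higher in males at 8 weeks, at a mean log2 value of 0.38 ± 0.31 against 1.04 ± 0.06 (SD, n = 5; limma, adjusted p = 0.227). Its groups did not overlap, as for 0.85% of all rows with males higher. Rdh5 was the only other row of that list at an unadjusted p under 0.05 at 8 weeks, and there was none of 27 rows at 21 weeks and none of 26 at 78 weeks. The Rdh5 row was very dim, at a mean log2 value of -5.94 in females and -6.41 in males, and has no background call because it matched no single probe.

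In the list of other aldehyde-handling genes, Akr7a3, an aldo-keto reductase, was 1.45-fold higher in males at 8 weeks (difference -0.54, SE 0.13; limma, adjusted p = 0.4002). Its groups did not overlap, as for 0.85% of all rows with males higher. Gsta4, a glutathione transferase for lipid aldehydes, differed by 0.25 (SE 0.08) at that age and Cyp2e1, an ethanol-oxidising cytochrome, by 0.69 (SE 0.24). Both were higher in females at an unadjusted p under 0.05, beside 2.21% of all rows. The Cyp2e1 row was dim, at a mean log2 value of -3.75 in females and -4.44 in males. It matched no single probe, so whether it was above background is not known. At 21 weeks 3 of 17 rows were at an unadjusted p under 0.05, all higher in males (Akr1a1, Akr1b1 and Akr1b10), beside 9.67% of all rows. At 78 weeks 1 was (Cbr3, higher in males), beside 3.68% of all rows. Among partners of the members in valine, proline, carnitine and fatty aldehyde metabolism, 3 of 19 rows were so at 21 weeks, all higher in males. Of all rows 15.9% were at such a p at that age, and 9.67% with males higher, so the count is near the share of all rows. These were Hibch and Hibadh, the enzymes before Aldh6a1 in valine breakdown, at -0.39 (SE 0.12) and -0.30 (SE 0.11), and Phyh at -0.32 (SE 0.12). Aldh6a1 itself was 0.24 (SE 0.21) at that age, and 0 partner rows were so at 8 or 78 weeks. No row of the 4 lists passed an adjusted p of 0.05 in limma at any age. The median difference of the lists lay between -0.21 and -0.12 at 21 weeks, beside -0.14 over all rows.

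**Figure D5:**
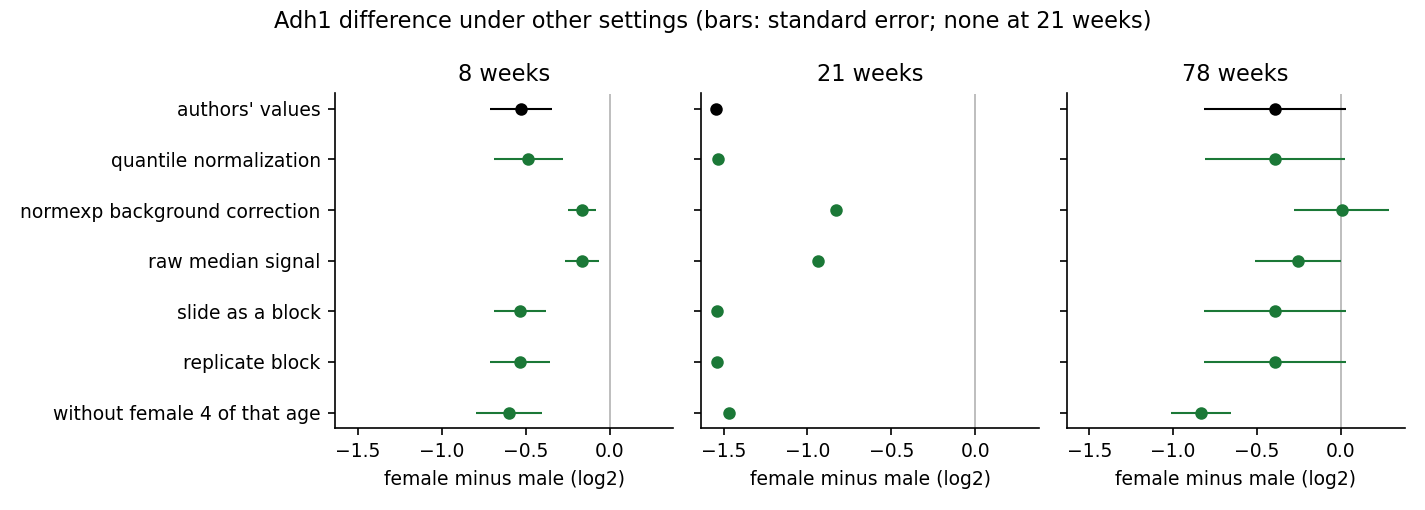
Female minus male difference of Adh1 on the log2 scale (x axis) under 7 settings (y axis) at 8, 21 and 78 weeks, with standard errors as bars at 8 and 78 weeks. At 21 weeks the difference stays below 0 in each setting shown, between -1.54 and -0.83, and at 78 weeks it lies between -0.83 and 0.00.

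The size of the Adh1 difference moved with the treatment of background. At 21 weeks it was -1.53 after quantile normalization, -0.94 from the raw median signal and -0.83 after normexp correction with an offset of 50. At 8 weeks the same settings gave -0.49, -0.17 and -0.17, and at 78 weeks -0.39, -0.26 and 0.00. An offset of 50 is close to the median processed signal of the Adh1 spot, 54.2 units, and it draws dim values together by construction.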

How the data were processed

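RNA of 30 rat hearts was measured on 1-colour Agilent arrays, read with Agilent Feature Extraction 9.5.1.1 per the file headers. The deposited tables, 1 for each age, hold signal values on a linear scale. The study's methods describe median pixel intensities, averaged over probes of a gene and scaled to the 75th percentile, but the matched rows of the deposited signal tables follow the background-subtracted processed signal over that percentile. The deposited scanner files hold intensity per spot (processed, mean, median and local background) and a call of well above background, a flag recorded under other. All 11 member rows matched 1 probe within 0.002 log2, as did 88.9, 88.9 and 88.6% of all table rows, and how the authors made the rest was not worked out. The 21-week male columns name the sex but not the rat.

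Log2 table values were compared between the sexes within each age with limma 3.58.1 (R 4.3.3), two-sided, with Benjamini-Hochberg adjustment over all 27408, 27383 or 26553 rows and calls at 0.05. Changes between ages were fitted on values rebuilt from the scanner files over 41012 probes, and so were the alternatives of normalization, background, block and left-out rats. The script was tested on simulated data. Members, lists and rules were chosen with earlier results of these data known. All member rows are named, and from the lists those at an unadjusted p under 0.05. With 5 rats per sex, precision is limited by the number of rats. Figures were drawn with matplotlib.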

Additional observations from a re-analysis of the deposited data

Results flagged for a closer look

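In 6 of 66 groups of 5 rats 1 member value lay far from the other 4, by Dixon's ratio of gap to range above 0.71 on log2 values, where chance gives about 3.3. Adh7 in male 1 at 8 weeks was 0.0183, the next male being 0.0388, and neither is clearly above background. Aldh1a1 in male 4 at 78 weeks was 3.03 against 2.78 for the next. Aldh2 in male 2 at 78 weeks was 30.7, with the next male at 54.5. Aldh3a2 and Aldh6a1 on the array labeled female 4 at 78 weeks were 8.74 and 3.92, with the next females at 7.79 and 1.72. Aldh6a1 on the array labeled male 3 at 78 weeks, which had Y-linked genes at the level of females, was 1.74, with the next male at 1.36. All values are normalized signals. On the linear scale 7 groups were past that ratio, these 6 and Adh1 in females of 78 weeks, where the array labeled female 4 was 1.37 and the next 0.433 (ratio 0.83).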

How the results depend on the processing

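The count of member rows past an adjusted p of 0.05 was 0 at each age and for the change between ages under every alternative run. An analysis of variance of each row, the test that the study's methods name, put 2 rows at 8 weeks and 2 at 21 weeks at an unadjusted p under 0.05. These were Adh1 and Aldh2 at 8 weeks, and Aldh1a1 and Aldh9a1 row 2 at 21 weeks. The raw median signal gave 0, 1 and 2 rows at the 3 ages, and normexp correction 0 at 8 and 78 weeks. The share of all rows at such a p was not worked out under these settings, so nothing is read from these counts.

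Under normexp correction the sign turned for Aldh4a1 (0.0023) and Aldh9a1 row 1 (-0.0303) at 8 weeks, for Aldh1a1 (0.24), Aldh1a2 (-0.43) and Aldh9a1 row 1 (0.36) at 21 weeks, and at 78 weeks for Adh1 (0.0047), Adh5 (0.0344), Adh7 (0.0092), Aldh1a2 (0.19), Aldh2 (-0.11), Aldh3a2 (-0.27) and Aldh9a1 rows 1 (-0.0393) and 2 (-0.0015). From the raw median signal it turned for Aldh9a1 row 1 at 8 (-0.0039) and 21 weeks (0.0943) and Aldh1a2 at 21 weeks (-0.25). Quantile normalization turned Aldh9a1 row 1 at 21 weeks (0.0224) and Aldh3a2 at 78 weeks (-0.0026). Leaving out female 4 and both arrays at odds with their label turned Aldh3a2 (-0.012) and Aldh4a1 (-0.12) at 78 weeks, an alternative chosen after seeing the data. The cause was not tested.

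Leaving out 1 rat at a time, the difference of Adh1 ranged from -0.65 to -0.44 at 8, from -1.69 to -1.47 at 21 and from -0.83 to -0.21 at 78 weeks. At 8 weeks the sign turned for Adh7 (-0.0508 to 0.25), Aldh3a2 (-0.0202 to 0.0311), Aldh4a1 (-0.14 to 0.0227) and Aldh9a1 rows 1 (-0.0185 to 0.10) and 2 (-0.0125 to 0.17). At 21 weeks it turned for Aldh2 (-0.0362 to 0.0473) and Aldh9a1 row 1 (-0.0637 to 0.043), and at 78 weeks for Adh5 (-0.0811 to 0.0668), Aldh3a2 (-0.0047 to 0.0665), Aldh4a1 (-0.11 to 0.12) and Aldh9a1 row 2 (-0.0883 to 0.16).

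Rats of the same replicate number deviated together in 1, 2 and 4 of 5 pairs (correlation over 0.1, range -0.13 to 0.31), and as not every pair was over 0.1 the numbers were not taken as pairs. At 78 weeks 4 of 5 rats correlated best with the rat of their own number (0.0586 to 0.217, against at most 0.0933 for other numbers). The labels do not name pairs of rats. At each age, however, the female and male of a number lay at array positions 2 and 1 or 4 and 3. The part of this layout in the correlations was not tested. With the replicate number as a block Adh1 was -0.53, -1.54 and -0.39, and 0 member rows were called. The slide as a block gave the same 3 values and 0 calls. Weak signal limits Adh7 and Aldh1a2. With rows well above background on at least 5 of 10 arrays, Adh7 at 8 and 21 weeks and Aldh1a2 at each age gave no value, nor did Aldh9a1 row 2 with the first row of each name.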
